A study of Mus musculus with 18 samples.

Results

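The 37 genes described here are markers of macrophages and monocytes, the phagocytic cells of the innate immune system, read in left ventricular RNA of female mice. They come from a list of myeloid symbols. Each gene was read from probe sets annotated to that symbol alone, and all 37 were found among the 18193 genes that have such a probe set. The list was not chosen by its values on these arrays, but it was drawn up with earlier results of these data known.

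The arrays compare the heart's growth in pregnancy with its growth under voluntary running. All mice were wild-type C57Bl/6 females of 3 to 4 months, and each array was hybridized with RNA of 2 to 3 hearts pooled in equal parts. NP/Sed animals were sedentary virgins taken at diestrus and served as the common control. 7EX and 21EX animals had a running wheel for 7 or 21 days, MP animals were at day 11 of gestation, LP animals at days 18 to 19, and 0PP animals were taken within 12 hours of giving birth. There were 3 arrays in each of the 6 groups, 18 in all. Since hearts were pooled, p-values measure the spread between pools and the spread between single hearts is not seen.

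Macrophages are among the most numerous leukocytes of the healthy heart. Some descend from embryonic precursors and renew themselves in place, and carry receptors such as TIM-4 (Timd4), folate receptor beta (Folr2), the haemoglobin scavenger receptor CD163 (Cd163) and the mannose receptor (Mrc1). Others descend from blood monocytes that enter the tissue through the chemokine receptor CCR2 (Ccr2). Both kinds need the transcription factor PU.1 (Spi1) and signals through the CSF1 receptor (Csf1r), and both clear debris with the help of complement, Fc receptors and scavenger receptors.

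Values are log2 expression values from robust multi-array averaging (RMA), and a difference of 1 is a doubling. Each gene is given at its probe set of highest mean over all arrays. A gene is called changed at a Benjamini-Hochberg adjusted p under 0.05 in the limma fit, adjusted over all 45037 probe sets. A probe set's level reflects its own probes as well as its transcript, so levels are compared between arrays and never between genes. In tissue RNA, more cells of a type and more RNA per cell cannot be told apart.

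The member genes were measurable in the ventricle. Over all arrays 34 of the 37 had a mean above 5, a level close to the array medians of 4.934 to 5.024, and 33 were above 5 on every array. Timd4 and Itgam, the alpha chain of complement receptor 3, lay below 5 on every array. The mean over 12 cardiomyocyte markers was 13.7 in NP/Sed and between 13.7 and 13.8 in the other groups. None of these markers was called against NP/Sed in limma, with 12 of 60 tests (20%) under an unadjusted p of 0.05.

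Against NP/Sed, every member called at its probe set of highest mean was higher, and most of the others had values above 0. The number called higher was 3 of 37 in 7EX, 5 in 21EX, 15 in MP, 2 in LP and 9 in 0PP. Over all genes, 0.693% were called higher in 7EX, 2.25% in 21EX, 0.956% in MP, 1.8% in LP and 2.4% in 0PP. Calls toward lower values, of which the members had none, made up 0.104%, 0.418%, 0.198%, 0.555% and 0.302% of all genes in the same order. At an unadjusted p under 0.05, limma put 1 member lower in LP and 1 in 0PP, both times Trem2, and a Cyber-T form of the test, which steadies each variance with those of probe sets of like intensity, called no member lower against NP/Sed. In total 17 of the 37 were called against NP/Sed at least once and 20 never were.

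The changes were small. The median log2 change of the 37 was 0.26 in 7EX, 0.32 in 21EX, 0.43 in MP, 0.27 in LP and 0.33 in 0PP. The medians over all genes were 0.03, 0.04, 0.03, 0.01 and 0.01 in the same order. Between 32 and 35 of the 37 members had a value above 0 in each of these comparisons. All of them share the same 3 NP/Sed arrays, so a low or high control array moves every one of them. With the fold limit of the study, a change of 75%, 1 member remained in any comparison with NP/Sed, Cd163 in LP. That limit with the adjusted p was met by 0.104% of all genes in 7EX, 0.0605% in 21EX, 0.181% in MP, 0.363% in LP and 0.143% in 0PP.

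**Figure D1:**
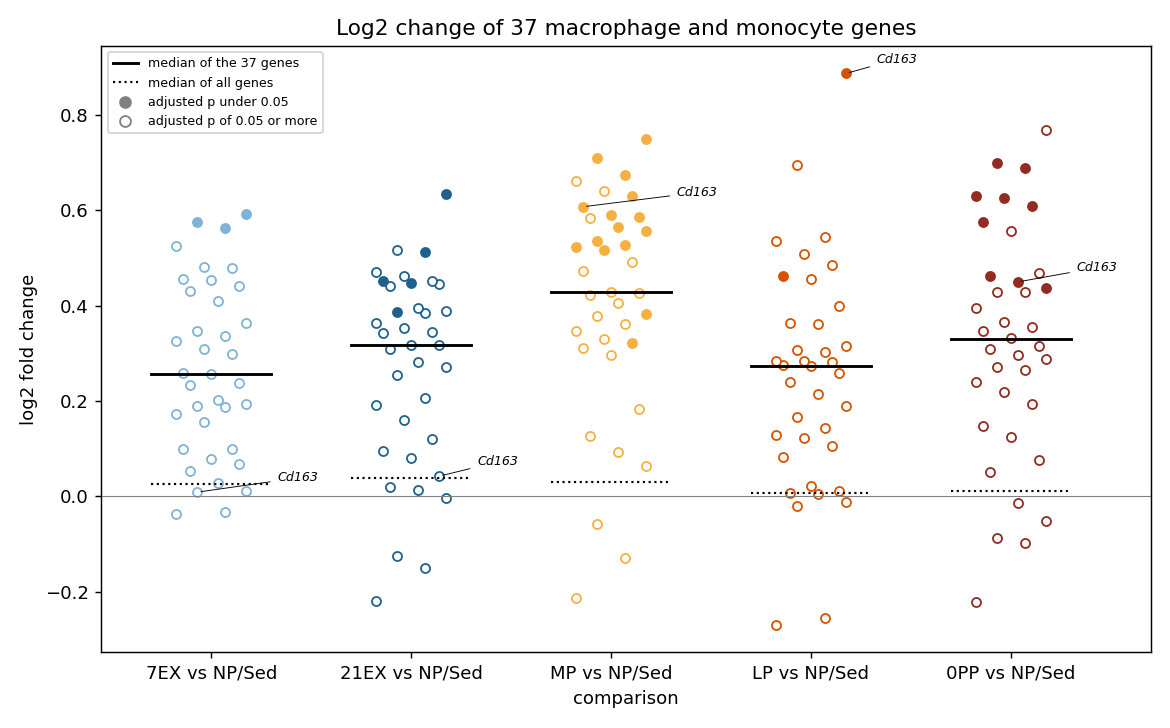
Log2 fold change of each of the 37 genes (y axis) in the 5 comparisons with NP/Sed (x axis). Filled points passed an adjusted p of 0.05, solid bars are medians of the 37 genes and dotted bars medians of all genes. The median of the 37 lies between 0.26 and 0.43, and Cd163 is at 0.01 and 0.04 in the exercise groups but at 0.61, 0.89 and 0.45 in MP, LP and 0PP.

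Array by array the same picture appeared as groups that did not overlap. All 3 arrays lay above all 3 NP/Sed arrays for 18 of the 37 members in 7EX, where 12.8% of all genes did so. The count was 22 in 21EX beside 18.7% of all genes, 27 in MP beside 12.6%, 8 in LP beside 11% and 23 in 0PP beside 15.2%. No member had all its arrays below NP/Sed in 7EX, 21EX or MP. Cx3cr1 and Trem2 did in LP and Trem2 in 0PP. The share of all genes lying below NP/Sed in this way was not counted, so these members cannot be set against it.

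The LP arrays stood furthest apart from each other. LP array 3 was the highest of its group for 31 of the 37 members and LP array 2 the lowest for 27, and their means over the 37 were 7.36 and 6.92, with LP array 1 at 7.08. The 3 MP arrays read 7.20, 7.33 and 7.31, the 0PP arrays 7.25, 7.20 and 7.14, and the NP/Sed arrays 6.95, 6.87 and 6.80. LP array 2 thus lay inside the NP/Sed range and LP array 3 above every other array. Without LP array 3 the median change in LP was 0.15, and without LP array 2 it was 0.37 with 8 members called. In LP 19 recruitment and adhesion genes averaged from 6.00 to 6.66 over the 3 arrays and 13 circulating monocyte genes from 6.43 to 6.89.

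**Figure D2:**
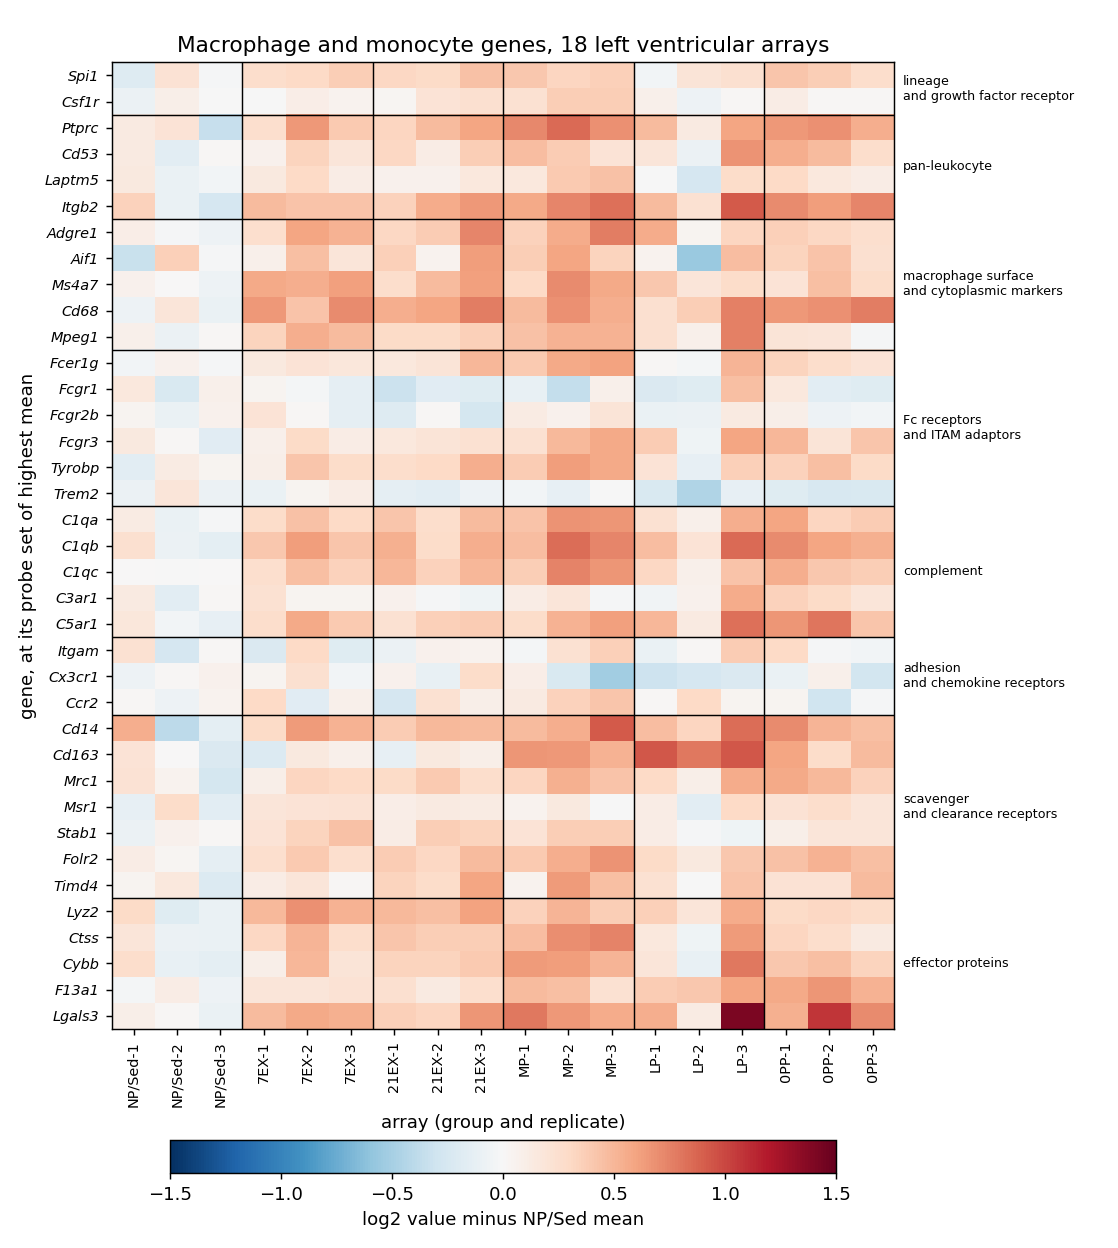
Heat map of the 37 genes (rows, ordered by role) in the 18 arrays (columns). Colour is the log2 value minus the mean of the 3 NP/Sed arrays. Most rows are red in every growth state, LP-2 is paler than LP-3 in most rows, and Cd163 is coloured in the pregnancy groups but close to white in 7EX and 21EX.

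Cd163 had the smallest p of the 37 genes over the 6 groups (adjusted p of the moderated F test, 0.000306). The receptor takes up haemoglobin bound to haptoglobin and is a marker of resident macrophages. Its arrays read 7.44, 7.24 and 7.02 in NP/Sed, 7.03, 7.38 and 7.31 in 7EX, 7.11, 7.38 and 7.32 in 21EX, 7.89, 7.88 and 7.75 in MP, 8.17, 8.03 and 8.16 in LP, and 7.83, 7.51 and 7.71 in 0PP. Every one of the 9 arrays of the pregnancy groups lay above every one of the 6 exercise arrays, and the exercise arrays overlapped those of NP/Sed. The log2 change in MP was 0.61 ± 0.12 (SE, adjusted p = 0.0163). In LP it was 0.89 ± 0.12 (adjusted p = 0.000917) and in 0PP 0.45 ± 0.12 (adjusted p = 0.0498). In 7EX it was 0.01 ± 0.12 (adjusted p = 0.988) and in 21EX 0.04 ± 0.12 (adjusted p = 0.892). The LP value is a rise of 1.85-fold. The difference between the pregnancy and the exercise groups was tested directly and came to 0.62 ± 0.07 (adjusted p = 6.68e-05). Cd163 was 1 of only 2 members called in that contrast, in which 4.08% of all genes were called in either direction. All 3 LP arrays were close together for this gene, between 8.03 and 8.17. The LP call and the call of pregnancy against exercise held with each of the 18 arrays left out in turn. The 0PP call lay at the threshold and was lost in 16 of those 18 fits. All 3 0PP arrays lay below those of LP, with a log2 change of -0.44 ± 0.12 (adjusted p = 0.0918).

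F13a1 was the other member called between pregnancy and exercise. It encodes the A subunit of coagulation factor XIII, which macrophages make and which crosslinks fibrin. It read 9.06, 9.20 and 9.02 in NP/Sed, 9.28, 9.27 and 9.31 in 7EX, 9.33, 9.23 and 9.35 in 21EX, 9.57, 9.55 and 9.32 in MP, 9.47, 9.50 and 9.69 in LP, and 9.66, 9.75 and 9.61 in 0PP. All arrays of the 5 growth states lay above NP/Sed, and the means of the pregnancy groups were above those of the exercise groups. The log2 change was 0.19 ± 0.08 (adjusted p = 0.313) in 7EX and 0.21 ± 0.08 (adjusted p = 0.184) in 21EX, neither called. It rose in MP by 0.38 ± 0.08 (adjusted p = 0.0324), in LP by 0.46 ± 0.08 (adjusted p = 0.00718) and in 0PP by 0.58 ± 0.08 (adjusted p = 0.00435). Pregnancy exceeded exercise by 0.27 ± 0.05 (adjusted p = 0.00689), although MP array 3 at 9.32 lay inside the exercise range. With the 3'-5' signal of the control transcripts as a covariate, this last difference was 0.21 and not called (adjusted p = 0.346), in a fit that called 86 genes in place of 743.

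**Figure D3:**
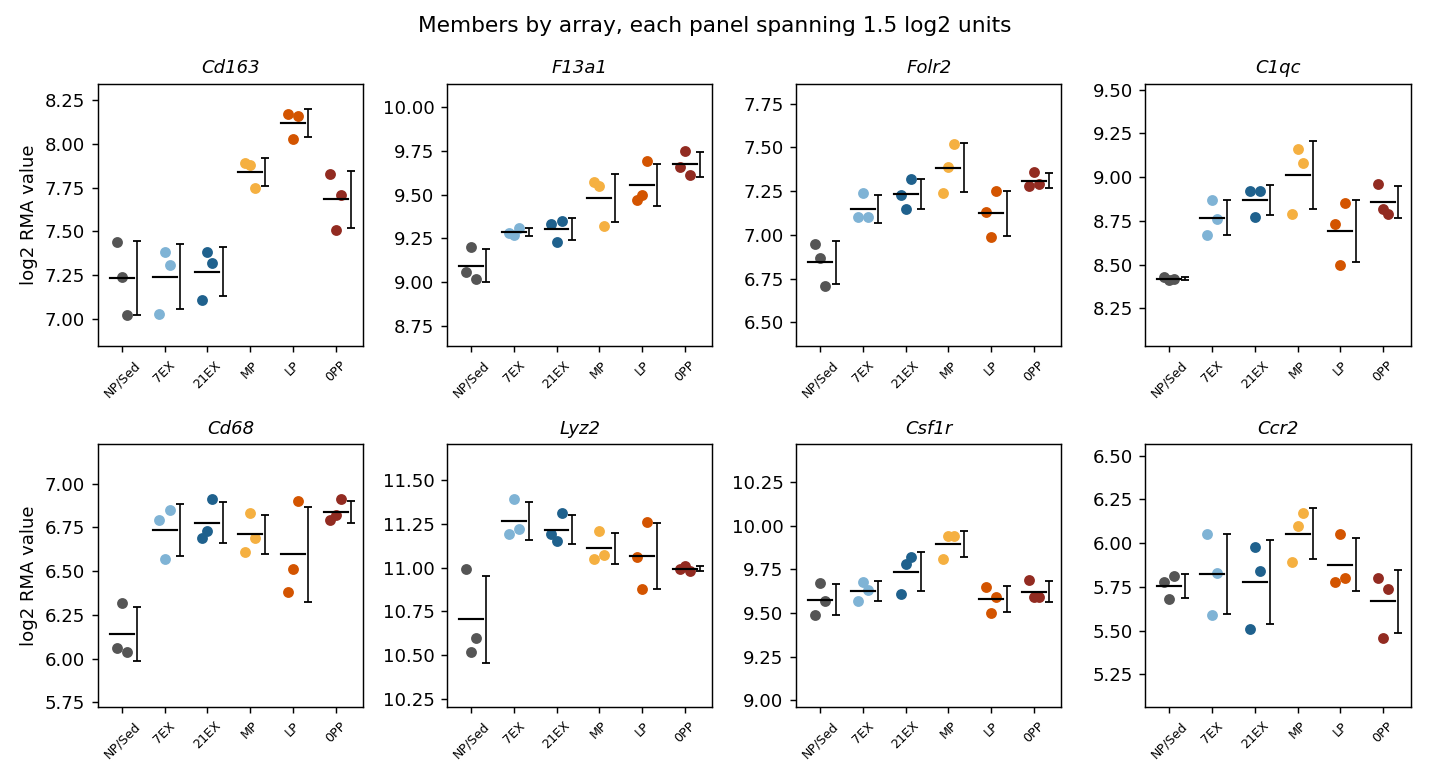
Log2 values of 8 genes in each array (points), with the group mean (horizontal bar) and SD over 3 arrays (bracket). Each panel spans 1.5 log2 units. Cd163 and F13a1 are highest in the pregnancy groups, Cd68 and Lyz2 are raised in exercise as well, the Csf1r mean is highest in MP, and the Ccr2 groups overlap.

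The resident receptors did not all follow Cd163. Folr2, which binds folate and marks resident macrophages, read 6.95, 6.87 and 6.71 in NP/Sed, 7.10, 7.24 and 7.10 in 7EX, 7.23, 7.15 and 7.32 in 21EX, 7.24, 7.39 and 7.52 in MP, 7.13, 6.99 and 7.25 in LP, and 7.28, 7.36 and 7.29 in 0PP. All arrays of every growth state lay above all NP/Sed arrays. Its log2 change was 0.39 ± 0.09 (adjusted p = 0.0305) in 21EX, 0.54 ± 0.09 (adjusted p = 0.00778) in MP and 0.46 ± 0.09 (adjusted p = 0.0166) in 0PP, all called, and 0.30 ± 0.09 (adjusted p = 0.132) in 7EX and 0.28 ± 0.09 (adjusted p = 0.146) in LP, not called. Pregnancy and exercise differed by 0.08 ± 0.06 (adjusted p = 0.603).

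Mrc1, the mannose receptor, was called in no comparison. It read 8.09, 7.93 and 7.61 in NP/Sed, 7.96, 8.20 and 8.18 in 7EX, 8.16, 8.27 and 8.14 in 21EX, 8.20, 8.41 and 8.31 in MP, 8.17, 7.97 and 8.43 in LP, and 8.45, 8.36 and 8.22 in 0PP. Its arrays lay above NP/Sed in 21EX, MP and 0PP and overlapped it in 7EX and LP, with log2 changes from 0.24 in 7EX to 0.47 in 0PP (adjusted p = 0.0531).

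Timd4, which binds phosphatidylserine on dying cells, read 3.45, 3.56 and 3.20 in NP/Sed, 3.52, 3.58 and 3.42 in 7EX, 3.74, 3.68 and 3.99 in 21EX, 3.46, 4.04 and 3.85 in MP, 3.63, 3.40 and 3.83 in LP, and 3.62, 3.62 and 3.88 in 0PP. These values are near the bottom of the scale, where RMA values carry little of a transcript's own signal. Only in 21EX and 0PP did all 3 arrays lie above NP/Sed, and no change was called.

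Ccr2, the receptor of recruited monocytes and macrophages, did not pass the test in any comparison. It read 5.78, 5.68 and 5.81 in NP/Sed, 6.05, 5.59 and 5.83 in 7EX, 5.51, 5.98 and 5.84 in 21EX, 5.89, 6.10 and 6.17 in MP, 5.78, 6.05 and 5.80 in LP, and 5.80, 5.46 and 5.74 in 0PP. The MP arrays were all above NP/Sed, with a log2 change of 0.30 ± 0.13 (adjusted p = 0.306), and every other group overlapped NP/Sed. The change was -0.09 ± 0.13 (adjusted p = 0.782) in 0PP. Its 3 other probe sets had means of 4.29, 4.04 and 3.37 and also gave no call. The probe set of mean 4.29 differed from the main one in pattern. It read 3.99, 4.08 and 4.10 in NP/Sed, and all its arrays in 7EX, 21EX, LP and 0PP lay above these. The 0PP arrays read 4.26, 4.21 and 4.26 there, and MP array 3, at 4.03, fell inside the NP/Sed range.

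The 4 resident genes were set beside Ccr2. The mean log2 change of Timd4, Folr2, Cd163 and Mrc1 minus that of Ccr2 was 0.09 ± 0.33 (SD, n = 3) in 7EX, 0.27 ± 0.21 in 21EX, 0.19 ± 0.08 in MP, 0.30 ± 0.30 in LP and 0.51 ± 0.14 in 0PP, with an SD of 0.23 among the NP/Sed arrays around 0. Without 7EX array 2 the 7EX value was -0.07, and without NP/Sed array 3 the MP value was 0.06. The 3 arrays of 0PP read 0.41, 0.66 and 0.45, all above the highest NP/Sed array at 0.14. In the other groups at least 1 array fell within the NP/Sed range of -0.26 to 0.14. In MP both sides were up, by 0.49 ± 0.12 for the resident genes and 0.30 ± 0.15 for Ccr2. In 0PP the resident genes were at 0.42 ± 0.04 and Ccr2 at -0.09 ± 0.18. The difference is a description of 5 genes of which the Ccr2 side is 1 probe set, and no test was made of it. Averaged over its 4 probe sets instead, Ccr2 gave differences of -0.06 in 7EX, 0.16 in 21EX, 0.31 in MP, 0.34 in LP and 0.34 in 0PP.

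**Figure D4:**
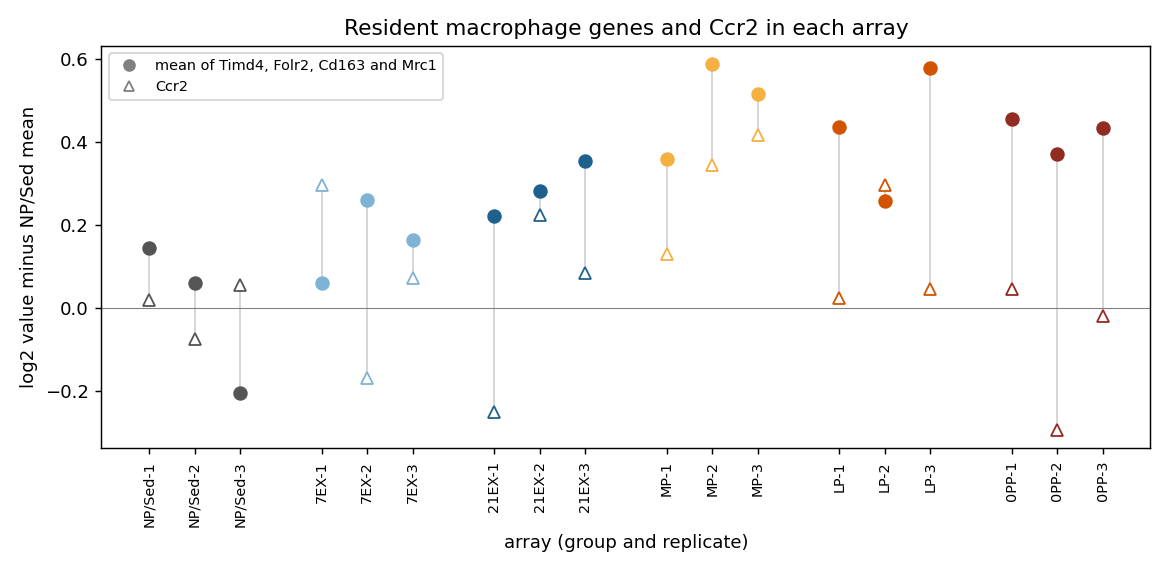
For each of the 18 arrays (x axis), the mean log2 change of Timd4, Folr2, Cd163 and Mrc1 (filled circles) and the change of Ccr2 (open triangles) from the NP/Sed mean (y axis). The circles lie above the triangles in all arrays of 21EX, MP and 0PP, with the largest mean gap in 0PP, while 1 array each of 7EX and LP has them the other way round.

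Of the remaining scavenger receptors none was called. Cd14, the endotoxin co-receptor, had log2 changes from 0.45 in 21EX to 0.64 in MP, but its NP/Sed arrays ranged from 5.75 to 6.68 and adjusted p values lay between 0.0943 and 0.247. Stab1, which clears modified lipoproteins and hyaluronan, changed by 0.33 in 7EX (adjusted p = 0.0879), 0.27 in 21EX, 0.31 in MP and 0.01 in LP. Msr1, the class A scavenger receptor, changed by 0.06 to 0.22 at its brightest probe set. A dimmer one, with arrays from 3.96 to 5.32, was higher in LP by 0.68 (adjusted p = 0.0382). Its LP arrays read 4.61, 4.42 and 5.32, and without LP array 3 the change was 0.415 (adjusted p = 0.13) and not called.

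The C1q genes were all called in MP. C1qa, C1qb and C1qc encode the chains of C1q, the recognition molecule of the classical pathway, lie next to each other on chromosome 4 and are made in tissue mainly by macrophages. C1qa read 9.24, 9.01 and 9.09 in NP/Sed, 9.39, 9.55 and 9.41 in 7EX, 9.53, 9.38 and 9.59 in 21EX, 9.54, 9.79 and 9.77 in MP, 9.34, 9.19 and 9.66 in LP, and 9.70, 9.44 and 9.49 in 0PP. C1qb read 9.33, 9.0 and 8.95 in NP/Sed, 9.50, 9.72 and 9.51 in 7EX, 9.63, 9.37 and 9.64 in 21EX, 9.56, 9.93 and 9.82 in MP, 9.56, 9.30 and 9.94 in LP, and 9.80, 9.68 and 9.63 in 0PP. C1qc read 8.43, 8.41 and 8.42 in NP/Sed, 8.67, 8.87 and 8.76 in 7EX, 8.92, 8.77 and 8.92 in 21EX, 8.79, 9.16 and 9.08 in MP, 8.73, 8.50 and 8.85 in LP, and 8.96, 8.82 and 8.79 in 0PP. In 7EX, 21EX, MP and 0PP every array of all 3 genes was above every NP/Sed array, while in LP only C1qc kept clear of it. In MP all 3 rose, by 0.59 ± 0.11 (adjusted p = 0.0173), 0.67 ± 0.14 (adjusted p = 0.0259) and 0.59 ± 0.10 (adjusted p = 0.00874). In 0PP C1qb and C1qc rose, by 0.61 ± 0.14 (adjusted p = 0.0342) and 0.44 ± 0.10 (adjusted p = 0.034), and C1qa was at 0.43 ± 0.11 (adjusted p = 0.0537). In 21EX C1qc alone rose, by 0.45 ± 0.10 (adjusted p = 0.0263). C1qb has 2 further probe sets, of the kind that can match related transcripts. They rose in MP, by 0.56 and 0.72, were not called in 0PP, at 0.35 and 0.37, and were called lower in LP than in MP, by -0.46 (adjusted p = 0.0417) and -0.55 (adjusted p = 0.0285), where the main probe set was at -0.17.

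C5ar1, the receptor of the chemoattractant C5a, read 4.73, 4.52 and 4.44 in NP/Sed, 4.83, 5.13 and 4.96 in 7EX, 4.79, 4.92 and 4.94 in 21EX, 4.84, 5.09 and 5.18 in MP, 5.06, 4.7 and 5.39 in LP, and 5.22, 5.37 and 4.98 in 0PP. All arrays of 7EX, 21EX, MP and 0PP were above NP/Sed, and it was called in 0PP, by 0.63 ± 0.14 (adjusted p = 0.0343). Its other probe set was at 0.15 in 0PP and not called. The main probe set had a mean of 4.95 and this other one a mean of 4.83. In 7EX, 21EX and MP the other probe set did not follow the main one. Its arrays ran from 4.75 to 5 in NP/Sed, 4.57 to 4.87 in 7EX, 4.76 to 4.88 in 21EX and 4.59 to 4.86 in MP. In LP they ran from 4.61 to 5.04. C3ar1, the C3a receptor, was at most at 0.27, in 0PP, and was not called. Another probe set was at 0.40 in 7EX, 0.39 in 21EX, 0.36 in LP and 0.45 in 0PP, also without a call, and a further one at -0.29 in MP.

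The promoters of C1qb, C1qc, Cd68 and Cd163 are printed, since C1qc and Cd68 were called in exercise and in pregnancy and Cd163 in the pregnancy groups alone. Each run is the 250 bases before the RefSeq transcription start on build GRCm38.p6, read 5′ to 3′ on the gene's strand. Capitals mark GAGGAA, the core bound by PU.1, and TGTTCT, the hexamer bound by the glucocorticoid receptor, on either strand (TTCCTC and AGAACA are their reverse complements). The motifs share no overlap with each other in these runs.
C1qb (chr4:136886201-136886450, minus strand): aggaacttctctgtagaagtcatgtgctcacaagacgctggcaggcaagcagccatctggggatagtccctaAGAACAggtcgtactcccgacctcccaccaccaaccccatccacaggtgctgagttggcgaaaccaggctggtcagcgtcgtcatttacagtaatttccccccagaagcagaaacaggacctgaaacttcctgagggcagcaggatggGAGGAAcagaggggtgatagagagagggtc
C1qc (chr4:136892915-136893164, minus strand): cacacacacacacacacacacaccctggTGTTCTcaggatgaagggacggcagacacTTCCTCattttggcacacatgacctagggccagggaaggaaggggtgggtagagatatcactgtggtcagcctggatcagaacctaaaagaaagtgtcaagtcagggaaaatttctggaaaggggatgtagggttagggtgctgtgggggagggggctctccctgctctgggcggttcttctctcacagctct
Cd68 (chr11:69666171-69666420, minus strand): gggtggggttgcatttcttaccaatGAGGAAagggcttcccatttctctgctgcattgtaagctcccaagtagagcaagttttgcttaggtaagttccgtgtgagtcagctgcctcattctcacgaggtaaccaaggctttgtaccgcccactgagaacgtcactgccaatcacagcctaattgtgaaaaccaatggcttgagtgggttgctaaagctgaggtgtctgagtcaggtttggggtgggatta
Cd163 (chr6:124304401-124304650, plus strand): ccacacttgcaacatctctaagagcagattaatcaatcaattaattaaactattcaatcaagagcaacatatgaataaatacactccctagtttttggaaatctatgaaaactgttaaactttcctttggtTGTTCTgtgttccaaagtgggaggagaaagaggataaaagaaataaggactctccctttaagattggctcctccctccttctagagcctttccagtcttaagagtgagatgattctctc
C1qb, C1qc and Cd68 hold 1 PU.1 core each, at 30, 193 and 225 bases before the start, and Cd163 holds none. C1qb, C1qc and Cd163 hold 1 glucocorticoid receptor hexamer each, at 178, 222 and 119 bases before the start, and Cd68 holds none. Windows were found for 29 of the 37 genes, and 15 of these (51.7%) hold the PU.1 core, as do 25.9% of 27025 genes with a window. The hexamer is in 11 of the 29 (37.9%) and in 18.2% of all. A match is a description of letters, and says nothing of binding in these hearts.

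Of 5 general macrophage markers, 2 were called in 7EX and 2 in 21EX, each time Cd68 and Ms4a7, 3 in MP, 0 in LP and 1 in 0PP. Cd68, a lysosomal glycoprotein, was called in 4 of the 5 comparisons with NP/Sed. It read 6.06, 6.32 and 6.04 in NP/Sed, 6.79, 6.57 and 6.85 in 7EX, 6.69, 6.73 and 6.91 in 21EX, 6.61, 6.83 and 6.69 in MP, 6.38, 6.51 and 6.90 in LP, and 6.79, 6.82 and 6.91 in 0PP. No array of any growth state fell into the NP/Sed range. The log2 change was 0.59 ± 0.12 (adjusted p = 0.0287) in 7EX, 0.64 ± 0.12 (adjusted p = 0.0156) in 21EX, 0.56 ± 0.12 (adjusted p = 0.0258) in MP and 0.70 ± 0.12 (adjusted p = 0.00839) in 0PP, and 0.46 ± 0.12 (adjusted p = 0.0562) in LP, which was not called.

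Ms4a7, a membrane protein of macrophages, read 6.59, 6.53 and 6.44 in NP/Sed, 7.09, 7.06 and 7.14 in 7EX, 6.78, 7.00 and 7.13 in 21EX, 6.82, 7.23 and 7.09 in MP, 6.92, 6.70 and 6.79 in LP, and 6.73, 6.97 and 6.80 in 0PP. All growth states lay above NP/Sed. It rose in 7EX by 0.58 ± 0.10 (adjusted p = 0.0202), in 21EX by 0.45 ± 0.10 (adjusted p = 0.0314) and in MP by 0.53 ± 0.10 (adjusted p = 0.0198), and was at 0.28 ± 0.10 (adjusted p = 0.218) in LP and 0.32 ± 0.10 (adjusted p = 0.117) in 0PP. A further probe set, dim at 2.85 to 3.3, was not called.

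Adgre1, the F4/80 antigen, read 6.86, 6.74 and 6.69 in NP/Sed, 7.01, 7.36 and 7.28 in 7EX, 7.07, 7.15 and 7.49 in 21EX, 7.11, 7.32 and 7.53 in MP, 7.32, 6.80 and 7.09 in LP, and 7.12, 7.07 and 7.02 in 0PP. It was called in MP alone, by 0.56 ± 0.13 (adjusted p = 0.0483), and that call held in 8 of 18 fits that leave out 1 array. Mpeg1, which encodes the pore-forming perforin-2, changed by 0.12 to 0.49 and Aif1, which encodes the actin-binding protein Iba1, by -0.01 to 0.43, with no call.

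Of 4 genes common to white cells, Ptprc and Itgb2 were called. Ptprc, the CD45 phosphatase, read 6.82, 6.89 and 6.33 in NP/Sed, 6.93, 7.33 and 7.07 in 7EX, 7.00, 7.16 and 7.27 in 21EX, 7.40, 7.53 and 7.36 in MP, 7.15, 6.81 and 7.27 in LP, and 7.33, 7.37 and 7.23 in 0PP. MP, 0PP, 7EX and 21EX did not overlap NP/Sed, and it rose by 0.75 ± 0.14 (adjusted p = 0.0146) in MP and 0.63 ± 0.14 (adjusted p = 0.0289) in 0PP. A further probe set, at 2.92 to 3.33, was not called in either. Itgb2, the common chain of the leukocyte integrins, read 6.14, 5.70 and 5.55 in NP/Sed, 6.27, 6.22 and 6.22 in 7EX, 6.14, 6.35 and 6.45 in 21EX, 6.36, 6.53 and 6.62 in MP, 6.27, 6.02 and 6.72 in LP, and 6.50, 6.42 and 6.53 in 0PP. It rose by 0.71 ± 0.15 (adjusted p = 0.0266) in MP and 0.69 ± 0.15 (adjusted p = 0.0272) in 0PP. Cd53 and Laptm5 were not called at their brightest probe sets, at 0.35 and 0.33 in MP. Another Laptm5 probe set was higher there by 0.61 (adjusted p = 0.0385), a call that held in 13 of 18 fits leaving out 1 array. The remaining Laptm5 probe sets were not called. That of mean 6.8 read 6.99, 6.77 and 6.73 in NP/Sed and 6.97, 6.44 and 6.93 in MP. That of mean 6.7 read 6.63, 6.87 and 6.99 in NP/Sed and 6.75, 6.65 and 6.68 in MP. A dim one, of mean 3.9, lay above NP/Sed in MP.

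Csf1r, the receptor that keeps macrophages alive, was called in MP. It read 9.49, 9.67 and 9.57 in NP/Sed, 9.57, 9.68 and 9.63 in 7EX, 9.61, 9.78 and 9.82 in 21EX, 9.81, 9.94 and 9.94 in MP, 9.65, 9.50 and 9.59 in LP, and 9.69, 9.59 and 9.59 in 0PP. The MP arrays did not overlap those of NP/Sed but overlapped those of 21EX, and all 3 LP arrays lay below those of MP. The change from NP/Sed was 0.32 ± 0.08 (adjusted p = 0.0493) in MP and 0.01 ± 0.08 (adjusted p = 0.985) in LP, and LP lay below MP by -0.32 ± 0.08 (adjusted p = 0.0478). It was the only member called in LP against MP, where 1.91% of all genes were called in either direction, a share close to the 2.7% that 1 of 37 makes. Its other 2 probe sets gave 0.20 and 0.17 in MP and -0.20 and -0.22 in LP against MP, without a call. The call in MP held in 3 and that in LP against MP in 4 of the 18 fits that leave out 1 array. Spi1, its transcriptional regulator, was at 0.31 to 0.36 in 7EX, 21EX, MP and 0PP and 0.13 in LP, with adjusted p values from 0.0592 to 0.615.

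Among the Fc receptors and their adaptors, which turn antibody binding into uptake, Fcer1g and Tyrobp were called in MP. Fcer1g, the common gamma chain, read 7.55, 7.65 and 7.57 in NP/Sed, 7.74, 7.80 and 7.76 in 7EX, 7.75, 7.78 and 8.09 in 21EX, 7.98, 8.16 and 8.19 in MP, 7.61, 7.56 and 8.10 in LP, and 7.92, 7.85 and 7.80 in 0PP. Tyrobp, the adaptor DAP12, read 7.67, 7.95 and 7.87 in NP/Sed, 7.92, 8.25 and 8.11 in 7EX, 8.09, 8.13 and 8.37 in 21EX, 8.21, 8.46 and 8.40 in MP, 8.03, 7.71 and 8.19 in LP, and 8.17, 8.28 and 8.12 in 0PP. The MP arrays of both lay above NP/Sed, with log2 changes of 0.52 ± 0.12 (adjusted p = 0.0384) and 0.52 ± 0.12 (adjusted p = 0.0397). LP array 2 lay inside the NP/Sed range for both. Fcgr3 changed by 0.16 to 0.42 and Fcgr1, at its brightest probe set, by -0.22 to 0.02 without a call. The other Fcgr1 probe set, of mean 5.26, had a different pattern. Its arrays ran from 4.9 to 5 in NP/Sed and from 5 to 5.81 in LP. They ran from 5.21 to 5.43 in 7EX, 5.03 to 6.07 in 21EX, 5.22 to 5.55 in MP and 5.05 to 5.36 in 0PP. All arrays of these last groups lay above NP/Sed.

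Fcgr2b, the inhibitory Fc receptor, depended on the probe set. The brightest one changed by -0.15 to 0.13. Another was higher by 0.52 in 21EX (adjusted p = 0.0436). For MP, LP and 0PP the values were 0.67, 0.66 and 0.59 (adjusted p = 0.0198, 0.0136 and 0.0319). A further one was higher in MP by 0.69 (adjusted p = 0.0258) and in LP by 0.60 (adjusted p = 0.0383).

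Trem2, a lipid-sensing receptor that signals through Tyrobp, went the other way. Its brightest probe set, which is of the kind that can match several transcripts, changed by -0.27 in LP (adjusted p = 0.172) and -0.22 in 0PP (adjusted p = 0.211), and its other one by -0.26 and -0.31. All LP and all 0PP arrays lay below NP/Sed at the brightest probe set. With both averaged into 1 value per gene it was called lower in LP and in 0PP.

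The 5 effector genes had a median change of 0.58 in MP, with 2 called, F13a1 and Ctss. Lyz2, lysozyme, was called in exercise alone. It read 10.99, 10.52 and 10.60 in NP/Sed, 11.19, 11.39 and 11.22 in 7EX, 11.19, 11.15 and 11.31 in 21EX, 11.05, 11.21 and 11.07 in MP, 11.06, 10.88 and 11.26 in LP, and 10.99, 11.01 and 10.98 in 0PP. It rose by 0.56 ± 0.11 (adjusted p = 0.0287) in 7EX and 0.51 ± 0.11 (adjusted p = 0.024) in 21EX, was at 0.41 ± 0.11 (adjusted p = 0.0835) in MP, and pregnancy and exercise differed by -0.18 ± 0.07 (adjusted p = 0.219), which was not called. The Cyber-T form called Lyz2 in MP as well, and called it lower in pregnancy than in exercise. NP/Sed array 1, at 10.99, lay inside the 0PP range. Ctss, the lysosomal protease cathepsin S, read 8.73, 8.46 and 8.45 in NP/Sed, 8.86, 9.06 and 8.81 in 7EX, 8.96, 8.91 and 8.92 in 21EX, 9.01, 9.24 and 9.29 in MP, 8.70, 8.48 and 9.18 in LP, and 8.87, 8.81 and 8.68 in 0PP. It rose in MP by 0.63 ± 0.13 (adjusted p = 0.0283). Cybb, the catalytic subunit of the phagocyte oxidase, was at 0.58 in MP (adjusted p = 0.0868). Lgals3, galectin-3, had the largest change of any member in 0PP, 0.77 (adjusted p = 0.0617), with 0PP arrays from 6.38 to 6.91 and LP arrays from 5.97 to 7.26.

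The remaining receptors for adhesion and migration were not called. Itgam changed by -0.03 to 0.18 and stayed dim. Cx3cr1, the fractalkine receptor, changed by 0.08 in both exercise groups, -0.21 in MP, -0.26 in LP and -0.10 in 0PP, none of them called. At this probe set it differed by -0.27 between pregnancy and exercise (adjusted p = 0.107), which the Cyber-T form called. A dimmer Cx3cr1 probe set, of mean 3.9, was not lower in LP and was not called. It read 3.75, 3.92 and 3.61 in NP/Sed and 3.97, 3.98 and 3.87 in LP.

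Between neighbouring states few members were called. From MP to LP only Csf1r was called, but at an unadjusted p under 0.05 limma put 14 members lower and 1 higher. Over all genes 15.7% had such a p in either direction. The 15 members under that p became 5 without LP array 2 and 21 without LP array 3. From 7 to 21 days of running no member was called, as was 0.0055% of all genes. At an unadjusted p under 0.05 limma found 1 member there, beside 6.82% of all genes. The Cyber-T form called none. From LP to 0PP no member was called, beside 1.33% of all genes. Here 2 members had an unadjusted p under 0.05, beside 12.1% of all genes, and the Cyber-T form called 1, Cd163, lower in 0PP. The count under that p depended on 1 array, and was 19 without LP array 3. The share of all genes under that p was not counted in the fits that leave out 1 array. At the adjusted p no member was called whichever array was left out.

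The counts rest on few arrays. In MP the 15 calls became 6 without NP/Sed array 2, 2 without NP/Sed array 3, 2 without MP array 2 and 1 without MP array 3, while the median change stayed between 0.39 and 0.53. In 0PP the 9 calls became 5 and 2 without NP/Sed arrays 2 and 3, and 3, 2 and 4 without 0PP arrays 1, 2 and 3. In 21EX the 5 calls became 2 and 1 without NP/Sed arrays 2 and 3, 3, 0 and 0 without 21EX arrays 1, 2 and 3, and 10 without LP array 3. In 7EX the 3 calls became 0 without NP/Sed array 2 or 3 or 7EX array 2 or 3. In LP the 2 calls became 6 without NP/Sed array 1 and 8 without LP array 2. The same fits also call fewer or more genes of all kinds, 42 in place of 210 in MP without MP array 3 for example.

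RNA quality differed between the groups. For the Gapdh and beta-actin transcripts, the signal of control probe sets at the 3' end exceeded that at the 5' end by a mean of 0.61 in NP/Sed, 0.51 in 7EX, 0.59 in 21EX, 0.69 in MP, 0.60 in LP and 0.66 in 0PP, and the NP/Sed arrays ranged from 0.519 to 0.734. The SD of this measure was 0.11 in NP/Sed, and in the other groups it ran from 0.00395 in 7EX to 0.0232 in LP. Inside groups the measure thus varied mainly among the NP/Sed arrays, and its effect cannot be fully told apart from that of group. With this measure as a covariate, the calls were 0 in 7EX, 6 in 21EX, 0 in MP, 3 in LP and 5 in 0PP. The median changes were then 0.29, 0.33, 0.42, 0.28 and 0.30, and 44 genes in place of 210 were called in MP. The 15 genes called in MP kept log2 changes from 0.25 to 0.74 in that fit, with adjusted p values from 0.0515 to 0.233.

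Other myeloid genes, from lists drawn up with the members, moved in part with Cd163. Of 22 further resident macrophage genes, 1 was higher in 21EX, 4 in MP, 4 in LP and 3 in 0PP, with 1 lower in 0PP. Lyve1, the hyaluronan receptor of resident macrophages and of lymphatic endothelium, rose in MP by 0.97 ± 0.14 (adjusted p = 0.00344), in LP by 0.92 (adjusted p = 0.00199) and in 0PP by 1.02 (adjusted p = 0.00408). Pregnancy exceeded exercise by 0.66 ± 0.09 (adjusted p = 0.000256). Cbr2, a carbonyl reductase, rose by 0.36 in 21EX, 0.54 in MP, 0.34 in LP and 0.69 in 0PP. Of the Ms4a6 family, Ms4a6b and Ms4a6c rose in MP, by 1.07 and 0.76, and Ms4a6d and Ms4a6c in LP, by 1.05 and 0.73. In 0PP Mgl2 rose by 0.62 and Cd209g, which is dim, fell by 0.29. Of 5 lymphatic endothelial markers none rose against NP/Sed and Prox1 fell in MP by 1.16 (adjusted p = 0.0225). Their means ran from 6.45 to 6.71 outside NP/Sed, where they ran from 6.50 to 6.70, and their part in the Lyve1 values was not tested.

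Among 19 growth factors, chemokines and adhesion ligands, the chemokine Ccl9 rose in MP, LP and 0PP, by 0.81, 0.84 and 0.86, and Ccl6 in 0PP, by 1.01. Vcam1, which holds leukocytes on endothelium, rose by 0.76 in LP and 0.98 in 0PP. Neither exercise group had a call in this list. Of 13 circulating monocyte genes Nr4a1 rose in MP, by 1.59 ± 0.32 (adjusted p = 0.0224), and Vcan in 0PP, by 0.999 ± 0.15 (adjusted p = 0.00435). Both are also expressed outside myeloid cells. Of 15 oxidase and lysosome genes Ctsz, cathepsin Z, rose in 7EX, 21EX and 0PP, by 0.56, 0.59 and 0.56. Of 8 complement partners 1 changed against NP/Sed, Cd93, which fell by 0.62 in LP (adjusted p = 0.00164). Of 11 myeloid transcription factors Cebpd and Nr1h3 rose in LP, by 1.16 and 0.51, and 4 were higher in pregnancy than in exercise, Cebpb by 0.83 (adjusted p = 0.000186). Of 12 clearance genes Abca1 rose in LP, by 0.41. The 9 antigen presentation genes and the 13 Fc signaling genes had no call against NP/Sed in limma, with 9 of 45 and 10 of 65 tests under an unadjusted p of 0.05, and 0 and 2 calls in the Cyber-T form.

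Markers of other cell types were read alongside. Neutrophil, T and NK, B, dendritic, smooth muscle and cardiomyocyte lists, 61 genes in all, had no call against NP/Sed in limma. Together 36 of 305 tests (11.8%) were under an unadjusted p of 0.05, and the Cyber-T form made 13 calls. The lists were not alike in this. The cardiomyocyte list held 12 of 60 tests (20%) under that p and 8 of the Cyber-T calls, and the dendritic list held 3 of these calls. Over all genes the share under that p ran from 13.4% to 20.2% in the 5 comparisons. The defining T and B cell markers were mostly dim, with 9 of 13 and 6 of 7 genes below 5 on every array. Over the neutrophil list the array means ran from 4.78 to 4.98 in NP/Sed, 4.94 to 4.96 in MP and 4.78 to 5.18 in LP. Other lists did hold calls against NP/Sed, though not in the same comparisons as the members throughout. The adipocyte and erythroid lists had no call in 7EX or 21EX. Of 8 adipocyte markers 2 rose in MP, 4 in LP and 1 in 0PP, with Adipoq, the adipocyte hormone adiponectin, up by 2.46 ± 0.43 in MP (adjusted p = 0.0102), and the array means ran from 6.28 to 6.64 in NP/Sed, 6.96 to 7.58 in MP and 6.82 to 7.27 in LP. Of 7 erythroid markers Alas2 and Slc4a1 rose in MP, Alas2 by 1.46 ± 0.13 (adjusted p = 5.61e-05), and Alas2 in 0PP by 0.60, with array means of 5.24 to 5.30 in NP/Sed and 5.51 to 5.81 in MP. Of 12 fibroblast markers Tcf21 rose in 21EX and 0PP, Postn rose in 0PP and Col3a1 fell in LP, and 4 were lower in LP than in MP. Of 10 endothelial markers Emcn rose in 7EX and 0PP and Vwf in LP and 0PP. The 9 mast cell markers had no call against NP/Sed in limma, with 3 of 45 tests under an unadjusted p of 0.05, and none in the Cyber-T form. The part of these cell types in the member values was not tested.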

How the data were processed

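Left ventricular RNA was hybridized to 18 mouse expression arrays, 3 in each of 6 groups. The deposited values are log2 expression values that the authors obtained by RMA in R 2.12.2. Of 45101 probe sets, 64 controls were left out and 45037 were tested. The 34945 annotated to 1 gene, of which 34741 carry a gene ID found in RefSeq, give 18193 genes. The members and lists were chosen with earlier results of these data known.

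All groups were fitted together with limma 3.58.1 (12 residual and 6.45 prior degrees of freedom), with Benjamini-Hochberg adjustment over the probe sets of each of 9 comparisons. The study used Cyber-T with a posterior probability, and a Cyber-T form (window 101, prior weight 10) is an alternative here. Genes given array by array are the resident genes and Ccr2, members called in any comparison and the 6 smallest F-test p-values. Fcgr2b, Trem2, Cd14 and other members described by ranges fall outside that rule. Tested on simulated data for MP against NP/Sed over 45037 probe sets, limma recovered 35 of 50 changes of 0.5 and all 50 of size 1, with 9 false calls among 44837. The Cyber-T form recovered 32 of 50 changes of 0.5 and all 50 of size 1, with 80 false calls. The alternatives were the fold limit, the samples fitted, the variance prior, the dim filter, the normalization, the summary of probe sets, a replicate block, an RNA quality covariate and leaving out each array.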

Additional observations from a re-analysis of the deposited data

Results flagged for a closer look

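Cd163 differed between pregnancy and exercise by 0.623 on the log2 scale in a direct test of the mean of MP, LP and 0PP against the mean of 7EX and 21EX, and F13a1 by 0.274. Csf1r differed between late and mid-pregnancy, with a log2 change of -0.317 from MP to LP. No group holds enough arrays for a test of single outlying arrays.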

How the results depend on the processing

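No result changed its direction past the threshold under any alternative, while the number of members called did depend on the processing. With the 75% change limit the counts were 0 in 7EX, 0 in 21EX, 0 in MP, 1 in LP, 0 in 0PP, 0 in LP against MP and 0 in pregnancy against exercise. The Cyber-T form called 11 in 7EX, 12 in 21EX, 23 in MP, 1 in 0PP against LP and 4 in pregnancy against exercise. The last were Cd163 and F13a1, higher in pregnancy, and Cx3cr1 and Lyz2, lower. The share of all genes that this form called was not counted. In the simulated data it made 80 false calls where limma made 9, so its larger counts are not directly comparable with those of limma. Fitting only the groups compared gave 2 in 21EX, 6 in MP, 1 in LP and 0 in LP against MP. An intensity trend gave 4 in LP, a mean of at least 5 gave 9 in 21EX, and median centring gave 8 in 21EX and 0 in LP against MP. Averaging the probe sets of a gene gave 4 in LP, and accepting any probe set gave 4 in LP and 2 in LP against MP. The 3'-5' covariate gave 0 in 7EX, 0 in MP, 5 in 0PP, 0 in LP against MP and 1 in pregnancy against exercise. The causes were not tested.

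With the replicate number as a block, 5 members were called in 0PP and 0 in LP against MP, and no other count moved by over 1.5 times. Arrays of the same number did not deviate together on average (mean correlation -0.03 over 45 pairs, from -0.27 to 0.18, against 0.01 over 90 other pairs). A mean over all probe sets cannot show whether some of them share a batch, and the labels give only a number.

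Leaving out 1 array at a time, the counts ran from 0 to 4 in 7EX, 0 to 10 in 21EX, 1 to 18 in MP, 2 to 8 in LP, 2 to 13 in 0PP, 0 to 2 in LP against MP and 2 to 3 in pregnancy against exercise, and were 0 in both 0PP against LP and 21EX against 7EX. The median changes ran from 0.20 to 0.32 in 7EX, 0.28 to 0.35 in 21EX, 0.39 to 0.53 in MP, 0.15 to 0.37 in LP, 0.28 to 0.36 in 0PP, -0.27 to -0.07 in LP against MP, -0.0121 to 0.242 in 0PP against LP, -0.03 to 0.07 in 21EX against 7EX and 0.03 to 0.10 in pregnancy against exercise. The low end for 0PP against LP came without LP array 2. The resident minus Ccr2 difference ran from -0.07 to 0.26 in 7EX, 0.14 to 0.37 in 21EX, 0.06 to 0.26 in MP, 0.17 to 0.47 in LP and 0.38 to 0.58 in 0PP.

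With 3 pools a group, single arrays decide many calls, and a dim probe set such as that of Timd4 understates any change.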
